A study of Homo sapiens with 15 samples.

Results

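Expression of 10 keratin genes was followed through the exposure experiment: KRT5, KRT6A, KRT7, KRT8, KRT14, KRT17, KRT18, KRT19, KRT80 and KRT81, taken by their symbols from the 28395 genes counted. Of these 10 members, 7 had enough counts to be tested beside the 16740 genes tested in all. The cells were BEAS-2B, an established human cell line derived from normal bronchial epithelium, grown in medium with fetal bovine serum. Exposed cultures received nanoplastics made from polyethylene terephthalate bottles (PET-NPLs) at 50 µg/mL, with fresh medium every few days, and passage-matched control cultures received none. RNA was sequenced from 2 control and 2 exposed samples at 24 h, 2 and 2 at 15 weeks, and 3 and 4 at 30 weeks. Batch 1 of the labels holds all samples of 24 h and 15 weeks and batch 2 all those of 30 weeks. Each comparison of exposed with control cells thus lies within 1 batch, while a change from 15 to 30 weeks cannot be told apart from the batch.

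Keratins are the intermediate filament proteins of epithelial cells. A filament is built from pairs of an acidic type I keratin and a basic type II keratin, and which pair a cell makes depends on the epithelium. KRT8 (type II) and KRT18 (type I) form the pair of simple, single-layered epithelia, often with KRT7 (type II) and KRT19 (type I). KRT5 (type II) and KRT14 (type I) are the pair of basal cells, including those of the airway. KRT6A (type II) and KRT17 (type I) are made by stratified epithelia under stress or during wound repair, KRT80 is a type II keratin of many epithelia, and KRT81 is a type II keratin of hair. Keratins are widely used to mark the epithelial origin of cells and tumors.

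The members lie in both keratin gene clusters (RefSeq, GRCh38.p14). On chromosome 12 they are KRT80 (chr12:52168996-52192014), KRT7 (chr12:52233243-52255853), KRT81 (chr12:52285913-52291534), KRT6A (chr12:52487176-52493257), KRT5 (chr12:52514575-52520394), KRT8 (chr12:52897191-52949860) and KRT18 (chr12:52948855-52952906). On chromosome 17 they are KRT19 (chr17:41523617-41528308), KRT14 (chr17:41582279-41586895) and KRT17 (chr17:41619442-41624575). KRT18 is the type I member placed next to its type II partner, and the outermost transcripts of KRT8 and KRT18 overlap on opposite strands over 1084 bases in GENCODE. Promoter sequence from RefSeq (GRCh38.p14) was at hand for 2 of the 10 members, KRT5 and KRT8. These 2 sequences are shown for that reason. KRT8 had the largest log2 difference at 30 weeks among the 7 tested, and KRT5 is a basal keratin that was at 0 after 24 h. The 250 bases upstream of the start site are on the minus strand, at chr12:52520395-52520644 for KRT5 and chr12:52926470-52926719 for KRT8, and capitals mark the E-box found by the search.
KRT5: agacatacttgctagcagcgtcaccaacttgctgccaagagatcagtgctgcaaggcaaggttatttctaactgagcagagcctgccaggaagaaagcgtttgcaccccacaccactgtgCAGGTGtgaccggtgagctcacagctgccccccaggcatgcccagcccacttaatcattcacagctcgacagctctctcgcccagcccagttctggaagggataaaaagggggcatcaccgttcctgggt
KRT8: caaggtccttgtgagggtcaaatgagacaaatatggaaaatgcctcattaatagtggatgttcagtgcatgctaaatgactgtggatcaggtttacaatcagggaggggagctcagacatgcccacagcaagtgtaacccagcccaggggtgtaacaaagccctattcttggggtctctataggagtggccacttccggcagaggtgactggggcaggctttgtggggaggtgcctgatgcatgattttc
The KRT8 window belongs to a start site at position 52926469, whereas the canonical KRT8 transcript starts at 52905076. The windows were searched on both strands for TATAAA, for the AP-1 motif TGANTCA, for the E-box CACCTG, which ZEB and SNAI factors bind, and for GGGCGG, the SP1 and KLF motif. KRT5 held 1 E-box, read as CAGGTG on the printed strand, at positions -130 to -125 from the start, and none of the searched letters were in the KRT8 window. Over 35116 promoters of the same length the E-box was in 17.5%, TATAAA in 10.7%, TGANTCA in 6.57% and GGGCGG in 42.6%, and a match is no evidence of binding.

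Gene counts per sample summed to 23143202 at the least and 31459990 at the most, and levels are given as CPM, counts scaled to library size after TMM normalization. A count of 0 allows up to 3 counts, equal to 0.0885 to 0.129 CPM depending on the sample, which covers counting error only. The kit kept strand information, but the sources used here do not say whether counting used it or how reads with several matches were handled. Without strand, KRT8 and KRT18 share reads, since 18.5% of the 100-base windows of the canonical KRT18 transcript also occur in KRT8 transcripts. KRT81 shares 30.3% of its windows, nearly all of them with the hair keratin KRT86, KRT6A 18.2% with KRT6B and KRT6C, and KRT7 8.32% with the antisense gene KRT7-AS. KRT19 and KRT80 share none, though KRT80 lies within LINC00592, a gene on the opposite strand. Exposed replicate 2 at 30 weeks correlated less with its group than the other exposed samples did, and the values of the 4 keratins called at 30 weeks are also given without it.

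The basal and stress keratins KRT5, KRT14 and KRT6A were at or near 0. KRT5 had 2 and 7 counts in the control samples and 5 and 12 in the exposed samples at 24 h, and 0 in every later sample. KRT14 had between 0 and 4 counts at 24 h and 1 count in 1 later sample, a 30-week control. KRT6A had 2 counts in each 24 h control and 0 in the other 13 samples. These 3 genes were not tested. Among 8 markers of bronchial epithelium, the adhesion molecule EPCAM and E-cadherin (CDH1) stayed under 1 CPM in every sample, and the summed level was 14.2 to 17.4 CPM at 24 h and 1.30 to 2.92 CPM later. That decline came with the splicing regulator ESRP2, at 12.5 to 15.3 CPM at 24 h and 0.175 to 1.86 CPM later. VIM, encoding the mesenchymal filament vimentin, was between 1030 and 1877 CPM in all 15 samples. In RNA from whole cultures, fewer cells of a type and less RNA per cell cannot be told apart.

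The most abundant keratin changed between 24 h and 15 weeks. KRT7 made up 55.2% to 57.9% of the keratin counts at 24 h and 0.498% to 2.66% at 15 weeks, where KRT8 took 59.2% to 62.0% and KRT18 33.6% to 36.0%. At 30 weeks KRT8 took 59.3% to 62.2% in exposed cells and 31.4% to 38.5% in the controls, where KRT80 reached 14.7% to 22.7%. The 10 members together stood at 2178 to 2512 CPM at 24 h, 855 to 1063 CPM at 15 weeks, 373 to 485 CPM in the 30-week controls and 912 to 1142 CPM in the 30-week exposed cells. Per kilobase of exon, KRT7 led at 24 h with 329 CPM per kb in the controls, above KRT18 with 108 and KRT8 with 70.0.

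Exposed and control cells differed in keratin expression at 30 weeks. KRT8, KRT18 and KRT19 were higher in exposed cells and KRT80 was lower, which is 4 of the 7 tested members, against 23.7% of all genes tested. By direction, 12.0% of all genes were higher and 11.7% lower. The groups did not overlap for these 4 members, as for 27.3% of all genes, and they overlapped for KRT7, KRT17 and KRT81. At 24 h none of the 7 passed the test (0% of all genes did), and their log2 fold changes lay between -0.26 and 0.17. At 15 weeks none passed either (0% of all genes), with 823 genes at an unadjusted p under 0.05. Unless another tool is named, adjusted p-values are from edgeR's quasi-likelihood test with Benjamini-Hochberg adjustment over all genes tested.

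**Figure D1:**
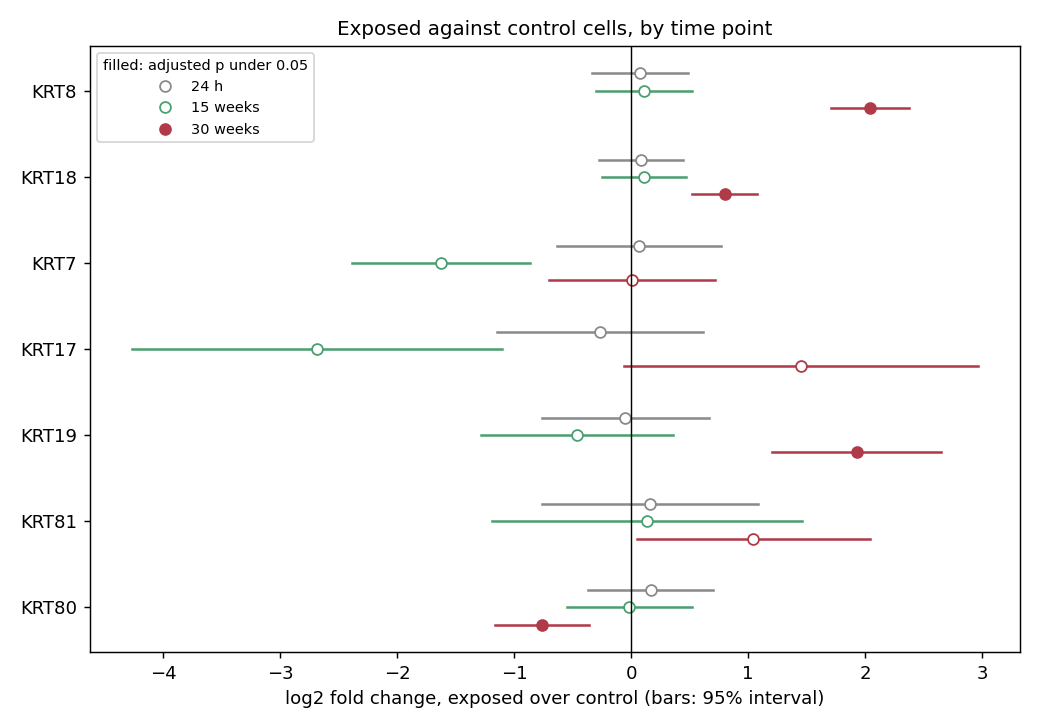
Log2 fold change of exposed over control cells for the 7 tested keratins at 24 h (2 against 2 samples), 15 weeks (2 against 2) and 30 weeks (4 against 3), with 95% intervals; filled points have an adjusted p under 0.05. The filled points are KRT8 (2.04), KRT18 (0.80), KRT19 (1.93) and KRT80 (-0.76) at 30 weeks.

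KRT8, the type II keratin of simple epithelia, was steady until the 30-week controls. Its level was 450 and 513 CPM in the controls and 532 and 482 CPM in exposed cells at 24 h, and 521 and 569 CPM in the controls and 530 and 646 CPM in exposed cells at 15 weeks. At 30 weeks the controls held 187, 136 and 127 CPM and the exposed cells 598, 541, 710 and 617 CPM. All 4 exposed samples were in or above the range of the earlier samples and all 3 controls were below it. The difference was 4.11-fold (log2 2.04 ± 0.16 SE, adjusted p = 1.288e-07), and without exposed replicate 2 it was 2.10 on the log2 scale. From 15 to 30 weeks KRT8 fell by 1.86 on the log2 scale in the controls (SE 0.17, adjusted p = 9.364e-07), while in exposed cells the change was 0.07 (95% interval -0.29 to 0.42, adjusted p = 0.7686).

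KRT18, the type I partner, followed the same order of groups with a smaller difference. The controls and exposed cells held 310 and 355 CPM against 368 and 337 CPM at 24 h, and 306 and 314 CPM against 287 and 383 CPM at 15 weeks. At 30 weeks the controls held 220, 179 and 184 CPM and the exposed cells 313, 331, 382 and 328 CPM. The 3 controls at 30 weeks were the lowest of the 15 samples. The difference was 1.74-fold (log2 0.80 ± 0.13 SE, adjusted p = 0.0003359), and 0.81 on the log2 scale without exposed replicate 2. KRT18 fell by 0.67 on the log2 scale from 15 to 30 weeks in the controls (SE 0.15, adjusted p = 0.001689), and the change in exposed cells was 0.01 (95% interval -0.30 to 0.32).

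The proportion of KRT8 to KRT18 moved with the groups. The ratio of their counts was 1.43 to 1.45 at 24 h, 1.69 to 1.85 at 15 weeks and 1.63 to 1.91 in the exposed cells at 30 weeks, whereas it was 0.691 to 0.850 in the 30-week controls. The ranges of the 30-week controls and of every other group did not meet. The ratio per kilobase was 0.638 to 0.647 at 24 h with merged exon lengths and 1.13 to 1.15 with the lengths of the canonical transcripts. The latter choice was made after seeing the data, and which of the pair was more abundant at 24 h depends on the length used. In the 30-week controls the ratio was 0.308 to 0.379 with merged exon lengths and 0.547 to 0.673 with canonical lengths. KRT18 was thus the higher of the pair there by either length.

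Markers of other cell types moved with the groups at 30 weeks as well. Of 8 skeletal muscle markers 4 were tested and 3 were lower in exposed cells, beside 11.7% of all genes. The 3 were MYOD1 and MYOG, transcription factors of the muscle lineage, and DES, encoding the muscle filament desmin. The sum over all 8 muscle markers was 73.2 to 114 CPM in the 30-week controls but 3.44 to 5.07 CPM in exposed cells. Most of the control sum was MYOD1. The other tested marker, MYH3, averaged 3.16 CPM in the controls and 3.49 CPM in exposed cells and was not called. CKM, MYH8, ACTA1 and TNNT3 had at most 4 counts in any 30-week control and at most 7 in any 30-week exposed sample. Earlier that sum was 4.76 to 6.25 CPM at 24 h and 5.75 to 10.3 CPM at 15 weeks. From 15 to 30 weeks MYOD1, MYOG and DES were called higher in the controls, beside 25.6% of all genes. In exposed cells only MYOD1 was called, as lower. These changes cannot be told apart from the batch. At 30 weeks MYOD1 averaged 85.3 ± 20.03 CPM (SD, n = 3) in the controls against 0.462 ± 0.210 (SD, n = 4) in exposed cells. In the exposed cells MYOG had 0 to 3 counts. The sum of 8 fibroblast markers was 478 to 602 CPM in the controls against 374 to 436 CPM in exposed cells, with 3 of 6 tested called. Most of that sum was THY1, at 364 to 420 CPM against 294 to 345 CPM, and PDGFRB, neither of them called. The sum of 4 leukocyte markers was 23.6 to 30.7 CPM against 11.9 to 17.3 CPM, with 1 tested and called, CD68, which was lower. Of all genes 23.7% were called, 12.0% higher and 11.7% lower. Of the fibroblast markers called, the collagen gene COL1A1 (log2 -2.91) and LUM (-2.59) were lower in exposed cells and the collagen gene COL1A2 was higher (3.28), on 0 to 18 counts in the controls, against 50 to 143. The 6 most abundant small noncoding RNAs took 22.3% to 31.0% of the control counts, against 17.0% to 21.5% of those of the exposed cells. The part of these shifts in the keratin results was not tested. The same 4 keratins were called in a fit without the 6 noncoding RNAs. That fit removed only these RNAs, so it cannot address the shifts of the cell type markers.

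KRT19, the smallest keratin and a type I partner in simple epithelia, was scarce in these cells. It stood at 9.87 and 12.1 CPM in the controls and 11.2 and 10.1 CPM in exposed cells at 24 h, and at 3.25 and 1.65 CPM against 2.05 and 1.49 CPM at 15 weeks. At 30 weeks the controls held 1.08, 0.866 and 0.358 CPM and the exposed cells 2.17, 3.99, 2.95 and 2.39 CPM. Every exposed sample was above every control, although the counts behind these values were only 10 to 25 in the controls, against 60 to 114 in exposed cells. The difference was 3.80-fold (log2 1.93 ± 0.34 SE, adjusted p = 0.0006636), and 1.73 on the log2 scale without exposed replicate 2. KRT19 is on a lung cancer gene panel that the study filtered by the trend in these samples, so its direction is not independent evidence. KRT19 fell by 2.17 on the log2 scale from 24 h to 15 weeks in the controls (adjusted p = 0.0003943) and fell by 2.58 in exposed cells (adjusted p = 9.869e-05).

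KRT80, whose filaments lie at desmosomes and the cell edge in several epithelia, moved the other way. It was at 38.1 and 34.4 CPM in the controls and 43.3 and 38.2 CPM in exposed cells at 24 h, and at 22.9 and 32.0 CPM against 28.2 and 26.2 CPM at 15 weeks. At 30 weeks the controls held 73.0, 54.8 and 92.3 CPM and the exposed cells 53.9, 30.3, 41.7 and 47.5 CPM. The groups were apart by less than 1 CPM between the lowest control and the highest exposed sample. KRT80 was 1.69-fold lower in exposed cells (log2 -0.76 ± 0.19 SE, adjusted p = 0.008484). This call was lost without control replicate 3 (log2 -0.56, adjusted p = 0.05421), and without exposed replicate 2 the value was -0.62. From 15 to 30 weeks KRT80 rose by 1.42 on the log2 scale in the controls (adjusted p = 0.0001692) and by 0.67 in exposed cells (adjusted p = 0.02238). The latter call was lost without exposed 15-week replicate 1 (adjusted p = 0.08903), exposed 15-week replicate 2 (0.1402) or exposed 30-week replicate 1 (0.05514).

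KRT7, a simple-epithelium keratin of the lung and many glands, lost more CPM than any other member. At 24 h it was at 1215 and 1414 CPM in the controls and 1350 and 1401 CPM in exposed cells. At 15 weeks it was at 23.4 and 12.7 CPM in the controls and 6.39 and 5.29 CPM in exposed cells. At 30 weeks it was at 2.67, 1.88 and 1.25 CPM in the controls and 1.34, 3.29, 1.77 and 1.27 CPM in exposed cells. Each later time point lay wholly below the earlier one. The level fell by 6.19 on the log2 scale from 24 h to 15 weeks in the controls (SE 0.42, adjusted p = 3.364e-08), a 72.9-fold drop, and fell by 7.88 in exposed cells (SE 0.45, adjusted p = 5.466e-09). Exposed cells were lower than controls at 15 weeks in both samples (log2 -1.62 ± 0.36 SE) but did not pass (adjusted p = 0.4139), whereas DESeq2 (adjusted p = 0.02785), limma-voom with surrogate variables (0.01064), edgeR with no filter (0.02565) and edgeR on the 15-week samples alone (0.001031) called it. At 30 weeks exposed and control cells differed by 0.01 on the log2 scale (95% interval -0.70 to 0.72).

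KRT17, the stress and repair keratin, followed KRT7 at a lower level. It was at 138 and 166 CPM in the controls and 120 and 133 CPM in exposed cells at 24 h, and at 2.53 and 1.00 CPM against 0.310 and 0.227 CPM at 15 weeks. At 30 weeks the controls held 0.473, 0.108 and 0.215 CPM and the exposed cells 0.290, 1.82, 0.348 and 0.352 CPM. From 24 h to 15 weeks KRT17 fell by 6.43 on the log2 scale in the controls (SE 0.55, adjusted p = 4.613e-07) and fell by 8.85 in exposed cells (SE 0.67, adjusted p = 1.069e-07). At 15 weeks exposed cells were lower in both samples (log2 -2.68 ± 0.75 SE, adjusted p = 0.6508, and 0.01304 with the 15-week samples fitted alone), on 10 and 7 counts. Without control 15-week replicate 1 the 15-week value was -1.87, and the level in the controls fell by 7.24 from 24 h to 15 weeks (adjusted p = 1.244e-05). At 30 weeks exposed replicate 2 was the highest sample and the other 3 overlapped the controls, and the difference of 1.45 (log2, SE 0.71) had an adjusted p of 0.1562.

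KRT81, a hair keratin, was present at 24 h and low later. Its level was 16.3 and 16.3 CPM in the controls and 19.2 and 17.2 CPM in exposed cells at 24 h, 0.853 and 0.678 CPM against 1.05 and 0.617 CPM at 15 weeks, and 1.42, 0.614 and 0.358 CPM against 1.20, 1.37, 3.16 and 0.669 CPM at 30 weeks. It fell by 4.41 on the log2 scale in the controls (SE 0.55, adjusted p = 2.222e-05) and fell by 4.43 in exposed cells (SE 0.54, adjusted p = 1.845e-05) from 24 h to 15 weeks. Its 30-week difference of 1.04 (log2, SE 0.47) had an adjusted p of 0.1218 and passed without control replicate 1 or without exposed replicate 4. KRT86, which shares sequence with it, was at 0.589 to 1.43 CPM at 24 h.

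Between 24 h and 15 weeks 4 of the 7 members fell in each arm, KRT7, KRT17, KRT19 and KRT81, and none rose. In the controls 24.9% of all genes were called and 12.2% were lower, and in exposed cells 26.0% were called and 12.5% were lower. KRT8, KRT18 and KRT80 passed in neither arm. KRT80 (log2 -0.40 in the controls and -0.58 in exposed cells) was called in both arms with the samples of 24 h and 15 weeks fitted alone. That fit called 6841 and 7031 of 16077 genes tested. In exposed cells KRT80 was also called by limma-voom with surrogate variables, which called 6564 of 16740 genes. From 15 to 30 weeks 6 of 7 members were called in the controls, 5 lower and KRT80 higher, where 50.3% of all genes were called, 24.6% lower and 25.6% higher. In exposed cells 2 of 7 were called, KRT7 lower (log2 -1.60, adjusted p = 0.001011) and KRT80 higher, against 46.0% of all genes. For the controls, the calls of KRT17 and KRT19 were lost without control 15-week replicate 1 (adjusted p = 0.07674 and 0.06018), with KRT17 at -1.96, against -2.76 with all samples and -3.41 without control 30-week replicate 1.

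**Figure D2:**
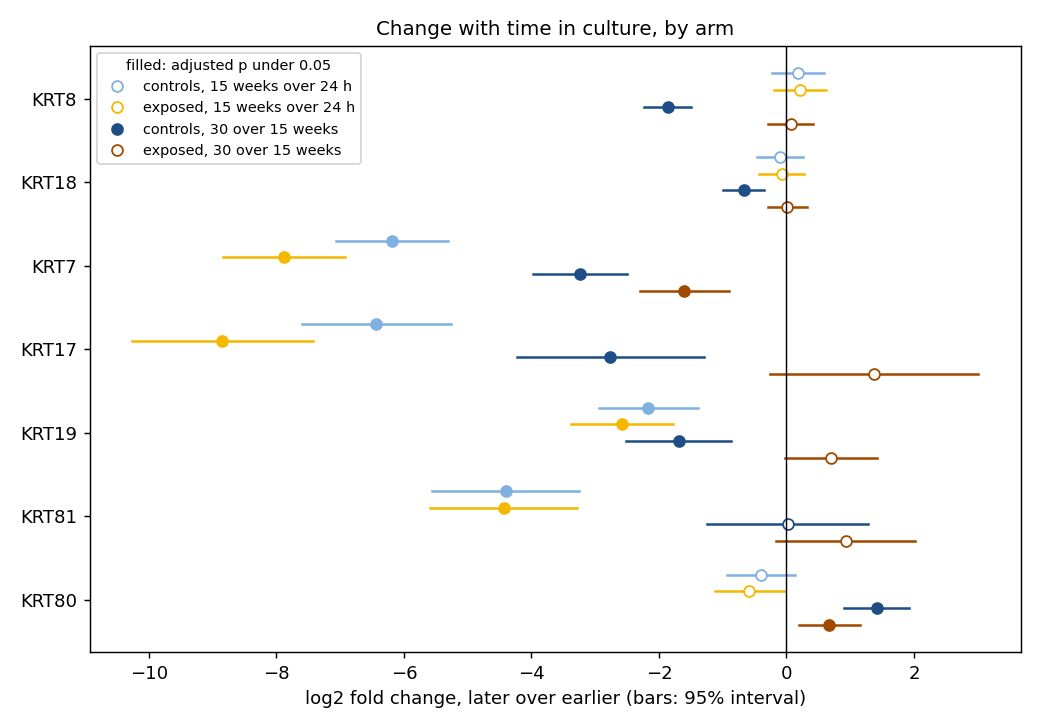
Log2 fold change with time in culture for the 7 tested keratins, by arm, with 95% intervals; filled points have an adjusted p under 0.05. KRT7, KRT17, KRT19 and KRT81 lie to the left from 24 h to 15 weeks in both arms, and KRT8 and KRT18 have filled points only for the controls from 15 to 30 weeks (-1.86 and -0.67).

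The exposure difference itself was compared between 30 and 15 weeks, as the change at 30 weeks minus that at 15 weeks. It was higher at 30 weeks for 3 of the 7 members, against 4.74% of all genes called and 2.66% called higher. The difference was 1.93 for KRT8 (log2, SE 0.25, adjusted p = 0.0001592), 4.13 for KRT17 (SE 1.03, adjusted p = 0.0292) and 2.39 for KRT19 (SE 0.52, adjusted p = 0.0115). KRT7 (1.63, adjusted p = 0.07683) and KRT18 (0.69, adjusted p = 0.08751) did not pass. The KRT17 call was lost without control 15-week replicate 1 (adjusted p = 0.1616), exposed 15-week replicate 1 (0.09668), exposed 15-week replicate 2 (0.1367), control 30-week replicate 2 (0.07774) or control 30-week replicate 3 (0.05604), and with limma-voom (3.64, adjusted p = 0.07164). Without exposed 30-week replicate 2 the KRT17 value was 3.05 (adjusted p = 0.01078), and without control 30-week replicate 1 it was 4.78. The KRT19 call was lost without control 15-week replicate 1 (0.1097) or exposed 15-week replicate 2 (0.08349). Without exposed 30-week replicate 2, 5 members were called. That run called 1519 of 16694 genes tested, against 794 of 16740 with all samples.

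Of 45 other keratin genes, 6 passed the filter, KRT10, KRT15, KRT16, KRT23, KRT34 and KRT86. KRT15, a basal keratin that marks hair follicle stem cells, had the same order of groups as KRT8 at 30 weeks. Its level was 0.0722 to 0.516 CPM in the 30-week controls, against 0.951 to 1.74 CPM in exposed cells, apart in every sample (log2 2.56 ± 0.53 SE, adjusted p = 0.002226), on 2 to 12 and 27 to 50 counts. KRT10, a keratin of the upper skin layers, was lower in exposed cells at 30 weeks, at 10.7 to 15.3 CPM against 16.2 to 27.0 CPM (log2 -0.68, adjusted p = 0.007432), and it has an antisense partner, KRT10-AS1. KRT16, KRT23, KRT34 and KRT86 stayed under 1.5 CPM in every sample and did not pass the test between exposed and control cells at any time point. The others were not tested. Without control 30-week replicate 1, 1 of the 6 was called at 30 weeks. The KRT15 effect also differed between 30 and 15 weeks (log2 3.08, adjusted p = 0.0269), a call lost without control 15-week replicate 1 or 2, exposed 15-week replicate 1 or 2, control 30-week replicate 2 or 3, or exposed 30-week replicate 3.

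Genes listed as filament partners (cytolinkers, desmosome and hemidesmosome proteins, keratin-binding proteins, other intermediate filaments and lamins) were called in both directions at 30 weeks. Of these 21 genes 4 were higher in exposed cells, beside 12.0% of all genes, 5 were lower, beside 11.7%, and 12 did not pass, with a median log2 fold change of -0.02 beside 0.01 over all genes. Of the desmosomal genes, DSP, encoding desmoplakin, which ties keratins to desmosomes, was at 3.83 to 5.44 CPM in the controls, against 19.0 to 32.0 CPM in exposed cells (log2 2.29 ± 0.19 SE, adjusted p = 2.034e-07). PKP3, a plakophilin of the desmosome plaque, was higher by 0.47. EPPK1, a cytolinker, was higher by 1.20 and SYNM, an intermediate filament protein of muscle, by 0.80. ITGB4, the integrin of hemidesmosomes that anchors keratins to the matrix, was lower at 5.47 to 18.5 CPM against 32.1 to 84.7 CPM (log2 -2.32, adjusted p = 9.298e-05), as were its partner ITGA6 (-0.66), PPL (-1.31) and MACF1 (-0.46), which link filaments to the cell edge or to microtubules; ITGA6 and MACF1 overlapped between the groups. NES, encoding nestin, a filament of progenitor cells, was lower (log2 -6.07), at 1 to 9 counts in exposed cells against 181 to 419. At 15 weeks ITGB4 averaged 5.07 CPM in the controls and 4.74 CPM in exposed cells. For NES these means were 1.10 and 0.470 CPM, and for DSP 25.7 and 29.1 CPM. The effect differed from that at 15 weeks for DSP (2.11), ITGB4 (-2.23) and NES (-4.87), a count of 3, beside 4.74% of all genes, that became 1 without exposed 15-week replicate 1 and 7 without exposed 30-week replicate 2. At 30 weeks 12 partners were called without exposed replicate 2. That run called 5704 of 16694 genes tested at 30 weeks, against 3961 of 16740 with all samples. For the difference of effects it called 1519 genes, against 794 with all samples. From 24 h to 15 weeks 9 partners fell and none rose in the controls, where 12.2% of all genes fell, and 10 fell and 2 rose in exposed cells, where 12.5% fell and 26.0% were called in either direction.

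Transcription factors that favour or repress epithelial genes were also compared at 30 weeks. Of 15 activators 8 were tested and 3 were higher and 1 lower in exposed cells, beside 12.0% and 11.7% of all genes: TFAP2C (log2 3.59, adjusted p = 9.724e-09), TFAP2A (0.70) and GRHL1 (0.65) were higher and KLF5 (-0.94) was lower, with overlap between the groups for TFAP2A. Without control 30-week replicate 1 the count of activators called was 2, and without exposed replicate 2 it was 5. Those runs called 2491 of 16681 and 5704 of 16694 genes tested, against 3961 of 16740 with all samples. TFAP2C, an AP-2 transcription factor of epithelial cells, was at 1.03 to 1.95 CPM in the controls, against 15.5 to 19.8 CPM in exposed cells. TP63 and GRHL2, regulators of basal and simple epithelium, had at most 3 and 2 counts in every sample. Of 6 repressors, all tested, 3 were lower and none passed as higher. SNAI2 was at 24.4 to 27.1 CPM in the controls, against 2.10 to 3.43 CPM in exposed cells (log2 -3.27 ± 0.18 SE, adjusted p = 3.409e-09). ZEB1 was lower (-1.10) and so was TWIST1 (-1.02). At 15 weeks SNAI2 averaged 4.70 CPM in the controls and 3.68 CPM in exposed cells. For TWIST1 these means were 11.47 and 13.01 CPM, and for ZEB1 31.49 and 30.76 CPM. From 15 to 30 weeks SNAI2 and TWIST1 were called higher in the controls, beside 25.6% of all genes. In exposed cells only ZEB1 of the 6 was called, as lower, beside 22.7%. These changes with time cannot be told apart from the batch. ZEB2 was at 27.4 to 38.3 CPM in the controls, against 39.8 to 45.7 CPM in exposed cells, apart in every sample but not past the test (log2 0.34 ± 0.12 SE, adjusted p = 0.05598). The count of repressors called was 4 with DESeq2, with limma-voom and without control 30-week replicate 2, and 3 without exposed replicate 2. The effect at 30 weeks differed from that at 15 weeks for TFAP2C (2.97), SNAI2 (-2.92), ZEB1 (-1.07) and TWIST1 (-1.20). These were 1 of 8 tested activators and 3 of 6 repressors, beside 4.74% of all genes. The partners, activators and repressors were read beside the keratins as lists, with no test of the lists.

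**Figure D3:**
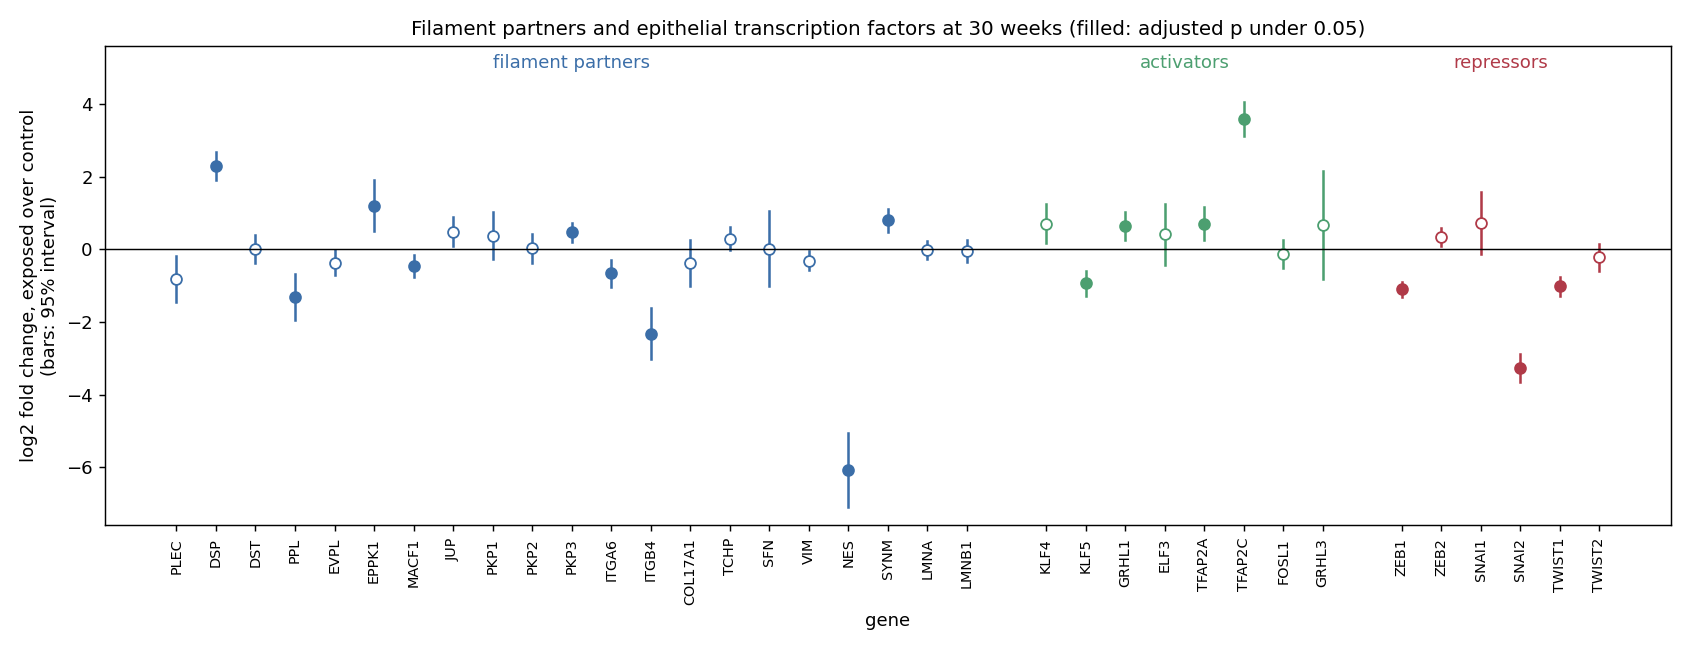
Log2 fold change of exposed over control cells at 30 weeks (4 against 3 samples), with 95% intervals, for 21 filament partners (blue), 8 tested activators (green) and 6 repressors (red) of epithelial genes; filled points have an adjusted p under 0.05. DSP (2.29) and TFAP2C (3.59) stand highest, and NES (-6.07), SNAI2 (-3.27) and ITGB4 (-2.32) stand lowest.

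Over the 15 samples, which share 6 conditions and 2 batches, the keratins fell into 2 groups by Pearson's r of log2 CPM, given as a description. KRT7, KRT17, KRT19 and KRT81 had an r between 0.85 and 0.97 with each other, and KRT8 and KRT18 had 0.95. KRT80 had a negative r with all 6 others, from -0.14 to -0.73. The genes most like KRT7 were ELL2 (0.99), PLK2 (0.99) and PDGFC (0.99), and those most like KRT17 were NPR3 (0.99), FJX1 (0.98) and ANXA3 (0.98). For KRT8 they were RAB42 (0.97), MID2 (0.96) and F2RL1 (0.96), and for KRT18 RAB42 (0.97), MID2 (0.95) and GGT8P (0.94). For KRT19 they were ADM (0.97), MGMT (0.97) and PLEK2 (0.96), for KRT80 USP2 (0.95), FOSL2 (0.95) and GAB2 (0.94), and for KRT81 SLC3A2 (0.97), PTGER2 (0.96) and CDH11 (0.96).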

How the data were processed

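The authors trimmed the reads with Rfastp, discarded those under 20 bases, mapped them to GRCh38 (hg38 per the labels) and counted them per gene with Rsubread (featureCounts per the labels). The authors deposited raw, unnormalized counts for 28395 genes named by Entrez number, of which 27745 carried a symbol. The kit was stranded; the counting strand and the handling of reads with several matches are not given in the sources used here. edgeR 4.0.16 (R 4.3.3) was used for its filterByExpr filter with the 6 conditions as groups, which kept 16740 genes, for TMM scaling and for its quasi-likelihood test over all 15 samples with 1 mean per condition. P-values were adjusted by Benjamini-Hochberg across every gene tested, and those under 0.05 were called. Intervals are 95% intervals of the fitted log2 fold changes, and a prior count of 2 went into log2 CPM. The scripts were tested on simulated data.

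The labels do not say that replicates came from separate cultures, so p-values measure only the spread between these samples, which may be technical. No replicate pair agreed within sampling noise (9.28 was the lowest chi-square per gene). The members, lists and rules were chosen with earlier results of these data known. The text names all members, the other keratins that passed the filter, the genes of the lists called at 30 weeks or in the difference of effects, and the 3 genes most correlated with each member; where a gene's role is given, it is background. Alternatives were DESeq2 1.42.0 with its size factors, limma 3.58.1 voom with and without surrogate variables (sva 3.50.0; 2 variables by the be method), upper-quartile and RLE scaling, other filters, a threshold of 0.01, no small noncoding RNAs, each time point alone, the replicate number as a block and each replicate left out. Levels were compared between genes per kilobase of GENCODE exons, and canonical transcript lengths were added after seeing the data.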

Additional observations from a re-analysis of the deposited data

Results flagged for a closer look

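KRT17 in the 4 exposed samples at 30 weeks held 1 sample far from the others: replicate 2 was at 1.82 CPM and the rest at 0.290 to 0.352 CPM, a Dixon ratio of 0.959, above the critical value for 4 samples. Chance alone passes that critical value in about 1 in 20 groups. All 7 tested keratins were checked, so a flag by chance among them is likelier than that. The other ratios were 0.483 to 0.751, below the critical value. Replicate 2 is also the sample that correlated least with its group over all genes.

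The effect of exposure differed between 30 and 15 weeks for 3 keratins by a test of the difference itself (edgeR's quasi-likelihood test, adjusted over all genes). It was 1.93 on the log2 scale for KRT8, 4.13 for KRT17 and 2.39 for KRT19. The time points lie in different batches, so the later time and its batch cannot be told apart. For KRT17 the exposed 15-week samples held 10 and 7 counts, and without exposed 30-week replicate 2 the difference was 3.05 (adjusted p = 0.01078).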

How the results depend on the processing

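Among the results recomputed, which are the counts of calls, the keratins called in each comparison and KRT7 and KRT17 at 15 weeks, no direction turned under any alternative run. At 24 h none of the 7 keratins was called by any method or with any replicate left out. At 15 weeks, where none was called, DESeq2, limma-voom with surrogate variables and the fit without a filter each called 1 (KRT7), and the fit of that time point alone called 2 (KRT7 and KRT17); with a replicate left out the count stayed at 0. At 30 weeks the 4 calls were 3 to 5 with a replicate left out. For the difference of effects, 3 calls became 5 with DESeq2, 5 with limma-voom and surrogate variables and 2 with limma-voom without them. Over all 16740 genes tested, 794 calls became 1118, 2245 and 793 in these runs. The 3 calls became 1 at an adjusted p under 0.01, and 1 to 5 with a replicate left out. The cause was not tested. For exposed cells from 15 to 30 weeks, 2 calls became 1 at an adjusted p under 0.01 and 1 to 2 with a replicate left out. For controls and exposed cells from 24 h to 15 weeks the ranges were 4 to 4 and 4 to 5, and for controls from 15 to 30 weeks 4 to 6.

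Replicate numbers are shared between the groups and were taken not to pair the samples, since the correlation of their deviations from the group means was not above 0.1 for every number: it was -0.06 at 24 h, 0.03 at 15 weeks, and -0.12, 0.31 and 0.10 for replicates 1 to 3 at 30 weeks. With the replicate block, 5 keratins were called at 30 weeks (KRT81 was added), 4 in the difference of effects and 1 for exposed cells from 15 to 30 weeks, where KRT80 was lost; the other counts were unchanged. KRT5, KRT6A and KRT14 were too scarce to be tested, with at most 12 counts in any sample, and KRT17 and KRT81 rested on few counts after 24 h. KRT17 could not be tested with at least 10 counts asked of every sample.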
